A study of Caenorhabditis elegans with 6 samples.

Results

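The mitochondrial ribosomal protein genes were taken as the genes whose deposited symbol starts with mrpl- or mrps-. There were 66 of them among the 15207 genes listed in both deposited tables, 39 with an mrpl- and 27 with an mrps- symbol, and every one was listed in each table. RNA came from whole bodies of adult N2 worms, the wild-type strain of *C. elegans*, which from synchronized young adulthood were grown at 20°C for 7 days on NGM plates that were renewed daily to remove offspring. The VK2-treated worms (libraries T1, T2 and T3) had 0.1 µM vitamin K2 (VK2) in the plates, and the control worms (libraries C1, C2 and C3) had none. The sources used here do not say whether the libraries of a group came from separate cultures, so the p-values below measure only the spread between these libraries, which may be technical. The values are FPKM (fragments mapped to a transcript, scaled to its length and to the library), as the authors deposited them.

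T1 and C1 stand in a first table and T2, T3, C2 and C3 in a second. The FPKM of a library summed to 654910 and 686279 in the first table and to between 369349 and 396004 in the second, so a level was not compared between the tables, and the table and any batch cannot be told apart. The reads behind each value are not given, and the depth is therefore unknown. Of the genes in both tables, 14191 had a mean FPKM of 1 or more and were tested, and all 66 mitochondrial ribosomal protein genes were among them. C3 stood apart from the other control of its table. The 8 oocyte and eggshell genes of the marker list summed to an FPKM of 2729 in T1, 1016 in T2 and 1023 in T3, against 2856 in C1, 1284 in C2 and 425 in C3. All 8 were lower in C3 than in C2, by a median log2 difference of 1.58, and the 43 sperm genes tested were lower by 0.86. In the first table the sperm genes were likewise lower in C1 than in T1, by a median of 0.87, so their low values were not particular to C3. The part of these marker differences in the results below was not tested, and values without C3 are given with them. The markers of germline, oocytes, muscle, intestine, hypodermis and neurons were above 0 in every library, as the label of whole body implies. In such bulk samples, fewer cells of a type and less RNA per cell cannot be told apart.

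Mitochondria carry their own ribosome, which translates the few proteins encoded by mitochondrial DNA, all of them subunits of the respiratory chain or of the ATP synthase. Its proteins, some with a bacterial counterpart and some found only in mitochondria, are encoded in the nucleus, made in the cytosol and imported. Those of the large subunit surround the peptidyl transferase center and the exit tunnel, and those of the small subunit bind the mRNA and hold the decoding site. In *C. elegans*, knockdown of *mrps-5* and of other mitochondrial ribosomal protein genes is known to lengthen life and to induce the mitochondrial unfolded protein response.

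Most mitochondrial ribosomal protein genes were expressed above the median of all genes tested. Their FPKM had a median of 53.5 in T1, 21.1 in T2 and 22.1 in T3, against 61.1 in C1, 21.2 in C2 and 20.2 in C3. The median member lay between percentile 68.2 and 80.6 of all genes tested, according to the library. Single members ranged from percentile 48.0 to 92.8 in T1 and from 37.6 to 88.3 in T2. Within a library, the highest member had between 4.17 and 7.78 times the FPKM of the lowest. *mrpl-54* was the lowest in T1, T2, T3 and C3, *mrps-28* in C1 and *mrpl-55* in C2. The highest was *mrpl-2* in T1 and C1, *mrpl-51* in T2 and T3, *mrpl-11* in C2, and *mrpl-14* in C3. Proteins of the cytosolic ribosome, given for scale, had a median FPKM of between 319 and 894. Together, the 66 genes held 0.549% of the FPKM of T1 and 0.622% of that of C1, and between 0.364% and 0.387% in the libraries of the second table. The order of the members by level was similar in the tables, with a Spearman's rho of 0.73 over 66 genes, which share libraries and are not independent replicates.

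No mitochondrial ribosomal protein gene passed the test for a difference between VK2-treated and control worms. The test was a two-sided limma fit to log2(FPKM + 1) in which the table was a further term. Benjamini-Hochberg adjustment ran over all genes tested. At an adjusted p below 0.05, limma called 0 of the 66 members, and it called 0 of all genes tested, a share of 0%. The adjusted p of every member rounded to 1.00, and the smallest over all genes was 0.708. At an unadjusted p below 0.05 there was 1 member, *mrps-23*, which was lower, against 0.705% of all genes that were lower at this threshold and 2.87% that were higher. The fitted log2 difference, VK2 minus control, was below 0 for 50 members and above 0 for 16, against 44.9% of all genes below 0 and 55.1% above. Its median was -0.07 over the members and 0.02 over all genes tested. On this scale, differences of genes with a low FPKM come out too small. The standard error of a member lay between 0.13 and 0.24, with a median of 0.16. The 95% interval stayed within 1.5 times in either direction for 56 of the 66 members and left out 0 for *mrps-23* alone, and no fitted difference of a member reached 1.5 times, where 1.68% of all genes were lower and 3.33% higher by as much. On simulated data with 200 changed genes among 14191, the same test called 0 of the 200 at a log2 change of 1 and 166 at a log2 change of 2. The changed genes were drawn from all genes tested and the noise was independent between genes, so these counts are not the sensitivity for the members.

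**Figure D1:**
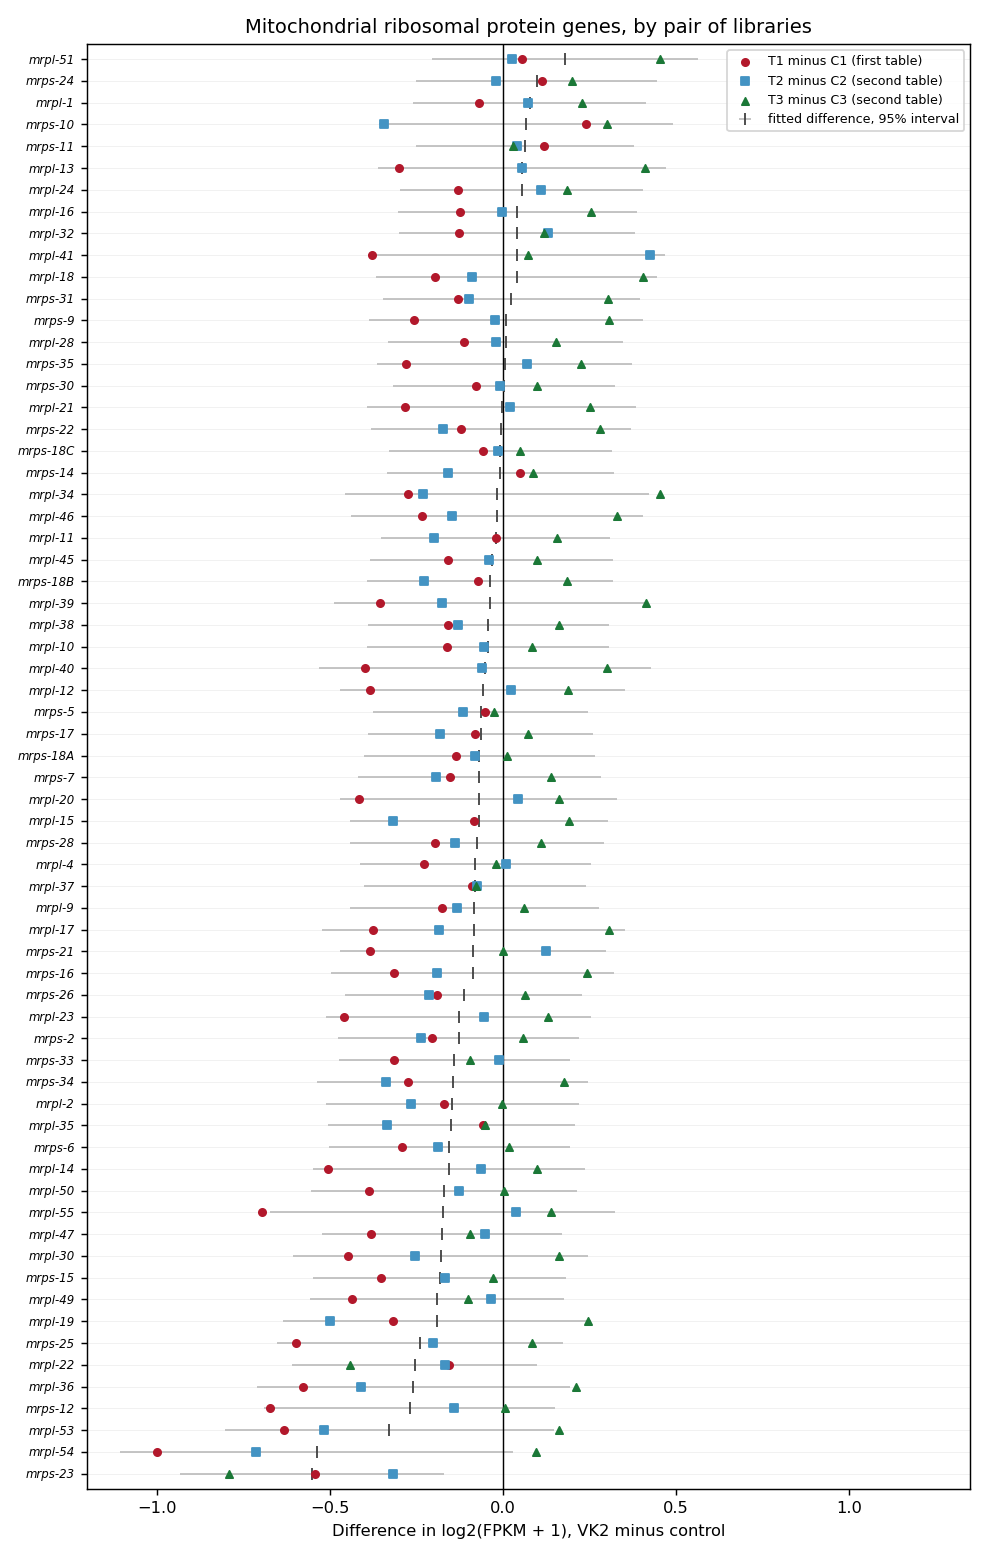
Difference in log2(FPKM + 1) between VK2-treated and control worms (horizontal axis) for each of the 66 mitochondrial ribosomal protein genes (rows, from the highest fitted difference at the top to the lowest at the bottom). Circles are T1 minus C1, squares T2 minus C2 and triangles T3 minus C3; the tick is the fitted difference and the gray line its 95% interval, which leaves out 0 only for *mrps-23*, while most circles lie left of 0 and most triangles right of it.

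The direction of the members differed between the pairs of libraries, which are named by the replicate numbers in the labels. In the second table these numbers did not mark the closer libraries. With the mean of each group removed, Pearson's r across genes was 0.556 for T2 and C2 and 0.543 for T3 and C3. It was 0.608 for T2 and C3 and 0.613 for T3 and C2, so the pairs of that table are a matching by number only. In the first pair, 61 of the 66 members were lower in T1 than in C1, against 48.8% of all genes, and 5 were higher, against 51.2%. Their median log2 difference was -0.22, against 0.01 over all genes. Some tissue markers differed in this pair too. The median was 0.87 over the 43 sperm genes (42 higher in T1). It was 0.44 over the 5 intestine genes (5 higher) and 0.33 over the 4 muscle genes (4 higher). The 8 oocyte and eggshell genes had -0.14, the 7 germline genes 0.11, the 5 neuron genes 0.04 and the 3 hypodermis genes -0.05. The part of these tissue differences in the members' values was not tested. In the second pair, 52 members were lower in T2 than in C2, where 62.1% of all genes were lower too, with medians of -0.12 and -0.07. In the third pair, 54 members were higher in T3 than in C3, as were 59.3% of all genes, with medians of 0.13 over the members and 0.11 over all genes. The pattern of lower, lower and higher held for 39 members and for 23.9% of all genes. The lower values of the first pair held under other scalings of the libraries, whereas in the other pairs the members then divided almost evenly. With each library of a table scaled to the same upper quartile, the members' median was -0.17 in the first pair with 60 lower, but -0.04 in the second with 36 lower, and -0.0025 in the third with 33 lower. The median of all genes in the third pair was -0.02 under this scaling and 0.11 as deposited. With quantile normalization the medians were -0.19, -0.03 and 0.03, with 59, 36 and 30 members lower.

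A difference of at least 1.5 times in a pair, which has no replicate check of its own, was reached by few members. In T1, the 5 members *mrpl-54*, *mrpl-55*, *mrps-12*, *mrpl-53* and *mrps-25* were lower by as much than in C1, as were 3.52% of all genes. *mrpl-54* alone was lower by as much in T2 than in C2 (2.58% of all genes). With its transcripts weighted by the bases they span, an alternative chosen after seeing the data, *mrpl-54* reached 1.5 times in neither pair (-0.51 and -0.32). In the third pair, *mrps-23* alone was lower by as much in T3 than in C3 (10.9%). No member was higher by as much in any pair, where 9.48%, 4.02% and 14.8% of all genes were. The spread over the members was narrower than over all genes, which were not matched to them by level. The SD over the members was 0.21 for T1 minus C1, 0.17 for T2 minus C2 and 0.19 for T3 minus C3, against 0.42, 0.35 and 0.65 over all genes. Between C2 and C3 the SD was 0.18 over the members and 0.69 over all genes, and the median of the members was 0.16, as was that of all genes.

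**Figure D2:**
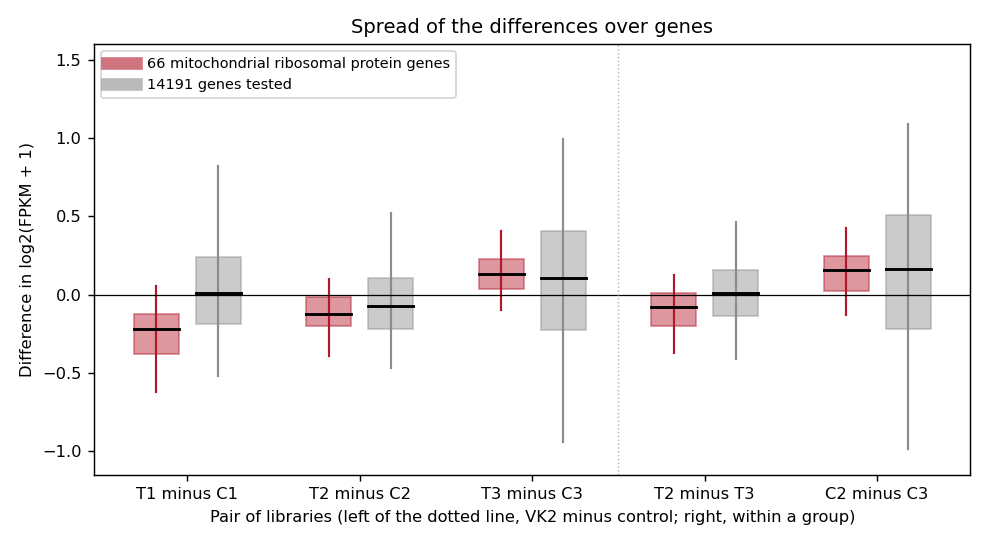
Difference in log2(FPKM + 1) (vertical axis) between 2 libraries, over the 66 mitochondrial ribosomal protein genes (red) and over all 14191 genes tested (gray). Each box runs from the 25th to the 75th percentile with the median as a black line, and the thin line runs from the 5th to the 95th; the red boxes are narrower than the gray ones, and the red median lies at -0.22 for T1 minus C1 and at 0.13 for T3 minus C3.

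Large and small subunit genes had medians close to each other, and the difference between them was not tested. The 39 mrpl- genes had a median fitted log2 difference of -0.07 with 30 below 0, and the 27 mrps- genes had -0.07 with 20 below 0. In the first pair, 38 of the 39 mrpl- and 23 of the 27 mrps- genes were lower in T1 than in C1, with medians of -0.27 and -0.19. In the second pair, the medians were -0.06 and -0.16, and in the third 0.16 and 0.08. *mrps-18A* and *mrps-30* carry small subunit names, but their mammalian counterparts sit in the large subunit. Their fitted differences were -0.07 and 0.0033. The 42 members with a bacterial counterpart, by the numbers of the human nomenclature, had a median of -0.07 with 31 below 0, and the 24 found only in mitochondria had -0.06 with 19 below 0.

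*mrps-23* (WBGene00014224), a small subunit protein without a bacterial counterpart, was the member with the smallest p. In the genome build WBcel235 it lies at 9523121 to 9523672 on chromosome III, minus strand. Its FPKM was 36.0 in T1, 13.1 in T2 and 10.2 in T3, against 52.9 in C1, 16.6 in C2 and 18.3 in C3. Each VK2 library was lower than every control of its table, and T3 was at 0.555 of C3. The fitted log2 difference was -0.55 (standard error 0.16, 95% interval -0.93 to -0.17), with an unadjusted p of 0.0113 and an adjusted p of 1.00 in limma with Benjamini-Hochberg adjustment. With each library left out in turn it lay between -0.64 and -0.45. The gene overlaps *prp-40* on the other strand. The library kit marked strand, but the sources used here do not say whether counting used it, so reads of the overlap may belong to either gene.

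Groups that did not overlap within either table were found for 7 members that were lower, among 5.98% of all genes, and for 1 that was higher, among 6.83%. The 7 were *mrpl-22*, *mrpl-35*, *mrpl-37*, *mrpl-49*, *mrps-5*, *mrps-23* and *mrps-33*. *mrpl-2*, *mrpl-47* and *mrps-15* were also lower in all 3 pairs, which makes 10 members (9.32% of all genes). *mrpl-22* (chromosome III, 10615466 to 10617859) encodes a protein that in bacteria lines the exit tunnel. It had an FPKM of 49.2 in T1, 17.2 in T2 and 16.9 in T3, against 54.9 in C1, 19.4 in C2 and 23.4 in C3. The VK2 libraries of the second table were alike and both below the controls, and the fitted log2 difference was -0.25 (standard error 0.15). *mrpl-49* (chromosome V, 12728631 to 12729417) had 43.9 in T1, 13.9 in T2 and 14.2 in T3, against 59.8 in C1, 14.2 in C2 and 15.3 in C3. Most of its difference of -0.19 (standard error 0.16) came from the first pair, and in the second table T3 and C2 were nearly equal. *mrpl-37* had 56.1 in T1, 20.2 in T2 and 19.7 in T3, against 59.8 in C1, 21.3 in C2 and 20.8 in C3, and its log2 differences lay between -0.09 and -0.07 in the 3 pairs.

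*mrps-5* (WBGene00008452), the member best known for its effect on worm lifespan, lies on chromosome V from 12563487 to 12565801. Its FPKM was 64.8 in T1, 31.9 in T2 and 33.1 in T3, against 67.2 in C1, 34.7 in C2 and 33.7 in C3. Every VK2 library was below the controls of its table, and the lowest ratio of a pair was 0.922, for T2 over C2. The fitted log2 difference was -0.06 (standard error 0.13), the smallest standard error of the members, with a 95% interval of -0.37 to 0.25 and an unadjusted p of 0.642 in limma. *mrps-5* kept this direction in every alternative tried, with values between -0.08 and -0.05 when a library was left out.

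**Figure D3:**
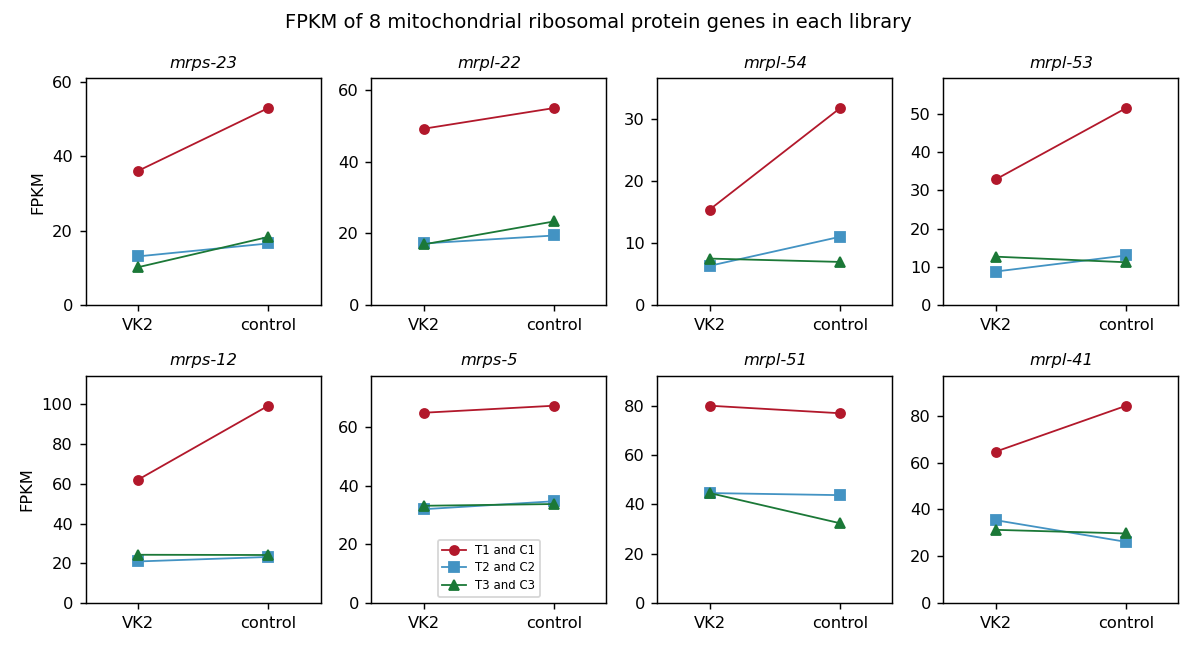
FPKM (vertical axes, each from 0) of 8 mitochondrial ribosomal protein genes in VK2-treated worms (left) and control worms (right), with a line joining the libraries of a pair. Circles are T1 and C1 of the first table, and squares (T2, C2) and triangles (T3, C3) are of the second; *mrps-23* is lower with VK2 in each pair, whereas *mrpl-54* and *mrpl-53* are lower in 2 pairs and slightly higher in T3 than in C3.

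After *mrps-23*, the lowest fitted differences were those of *mrpl-54*, *mrpl-53* and *mrps-12*. *mrpl-54* and *mrpl-53* encode large subunit proteins found only in mitochondria. *mrpl-54* (chromosome I, 9159121 to 9159522, minus strand) had an FPKM of 15.4 in T1, 6.35 in T2 and 7.52 in T3, against 31.8 in C1, 11.04 in C2 and 6.98 in C3. T1 and T2 were far below their controls, while C3 lay between T2 and T3, so the groups overlapped. Its fitted log2 difference was -0.54 (standard error 0.24, unadjusted p = 0.0596 in limma), and -0.25 with its transcripts weighted by the bases they span. *mrpl-53* (chromosome II, 9597622 to 9598201) had 32.8 in T1, 8.79 in T2 and 12.7 in T3, against 51.5 in C1, 12.998 in C2 and 11.2 in C3. Here T3 was above C3 and just below C2, and the difference was -0.33 (standard error 0.20). *mrps-12* (chromosome V, 20838080 to 20838768) encodes the counterpart of the bacterial protein at the decoding center in which streptomycin resistance arises. Its FPKM was 62.0 in T1, 20.9 in T2 and 24.3 in T3, against 99.3 in C1, 23.1 in C2 and 24.1 in C3. The first pair made up most of its difference of -0.27 (standard error 0.18).

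*mrpl-36* and *mrps-25* showed the same order of pairs. *mrpl-36*, the member with the shortest exonic length at 309 bases, had an FPKM of 62.1 in T1, 12.7 in T2 and 17.5 in T3, against 93.2 in C1, 17.3 in C2 and 14.97 in C3. *mrps-25*, of the small subunit, had 53.3 in T1, 14.8 in T2 and 15.7 in T3, against 81.2 in C1, 17.2 in C2 and 14.7 in C3. Both were lower in T1 than in C1 and in T2 than in C2, and in both T3 was above C3. The fitted log2 differences were -0.26 (standard error 0.19) for *mrpl-36* and -0.24 (standard error 0.17) for *mrps-25*.

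Leaving out C3, the control that stood apart, gave 5 members at an unadjusted p below 0.05 in limma, all lower with VK2, where 3.45% of all genes were lower at this threshold. They were *mrpl-54* (-0.77), *mrps-23* (-0.51), *mrpl-53* (-0.43), *mrpl-19* (-0.35) and *mrps-25* (-0.35), each with an adjusted p of 0.681 after Benjamini-Hochberg adjustment. None was called, and limma without C3 called 0.0141% of all genes. In *mrpl-54*, C3 was the only control assigned mostly to the transcript F25H5.6.1 (90.7%), as the VK2 libraries were. The share was 0.13% in C1 and 0.84% in C2. The transcripts of *mrpl-54* span unlike lengths, and no value weighted by span was computed without C3. The members' median was then -0.13 and 8 were above 0, while 58% of all genes were below 0. In the second table alone, without T1 and C1, 33 of the members were above 0 and the median was 0.0050, with 45.7% of all genes below 0. The negative median of the fit to both tables thus depended on T1 and C1.

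The median difference of the first pair lay farthest below 0 in the shortest members. Exonic length, from Ensembl release 115, had a median of 767 bases over the members, with a range of 309 to 2164, against 1335 over all genes tested. The 6 members under 500 bases, *mrpl-36*, *mrpl-53*, *mrpl-54*, *mrpl-55*, *mrps-21* and *mrps-23*, had a median log2 difference of -0.60 between T1 and C1, -0.36 between T2 and C2 and 0.12 between T3 and C3. All genes tested under 500 bases had -0.13, -0.02 and 0.05. The 4 members of 1500 bases and over had -0.10, -0.02 and 0.16. The lengths by which the deposited FPKM were divided are not given and may differ from these. *mrpl-54* has an exonic length of 402 bases here, but its deposited transcripts span 734 and 508 bases. Its log2 difference between T1 and C1 was -0.998 as deposited and -0.51 with the transcripts weighted by span. Across genes, which are not independent replicates, Spearman's rho between length and the difference was 0.41 over the 66 members in the first pair and 0.18 over the 14147 genes with an annotated length. In the second pair it was 0.12 and -0.10, and in the third 0.04 and 0.01. Whether RNA quality or fragment length differed between the libraries was not tested.

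**Figure D4:**
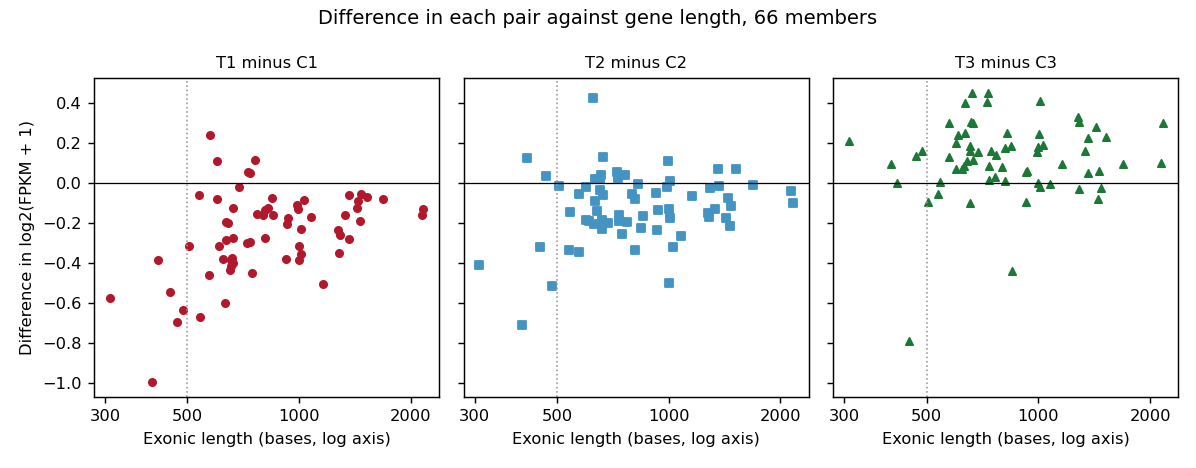
Difference in log2(FPKM + 1), VK2 minus control (vertical axis), in each pair of libraries against exonic length in bases (horizontal log axis) for the 66 mitochondrial ribosomal protein genes. The dotted line marks 500 bases; left of it all 6 genes lie below 0 in T1 minus C1, with a median of -0.60, whereas 4 of the 6 lie below 0 in T2 minus C2.

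At the other end, *mrpl-51*, of the large subunit, had the highest fitted difference and was the member whose groups did not overlap in the higher direction. It lies on chromosome IV from 12031324 to 12032154. Its FPKM was 80.1 in T1, 44.6 in T2 and 44.7 in T3, against 77.1 in C1, 43.8 in C2 and 32.4 in C3. T1 and T2 were barely above their controls, and the low value of C3 made most of the difference of 0.18 (standard error 0.16). *mrps-11* was the other member that was higher in all 3 pairs (10.8% of all genes), with 65.9 in T1, 36.7 in T2 and 34.6 in T3, against 60.7 in C1, 35.6 in C2 and 33.9 in C3. T3 lay below C2, so its groups overlapped, and the difference was 0.06 (standard error 0.13).

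*mrps-24* and *mrpl-1* followed, at 0.10 and 0.08 (standard errors 0.15 and 0.14). These 2 genes are neighbors on chromosome IV on opposite strands, with 343 bases between them. *mrps-24* had 40.6 in T1, 14.5 in T2 and 14.9 in T3, against 37.4 in C1, 14.7 in C2 and 12.8 in C3. *mrpl-1*, whose bacterial counterpart forms a stalk of the large subunit, had 58.7 in T1, 32.5 in T2 and 32.4 in T3, against 61.7 in C1, 30.9 in C2 and 27.5 in C3. Both were higher in T3 than in C3 but differed little elsewhere, and *mrpl-1* overlaps *emc-6* on its own strand. *mrps-10* had 39.4 in T1, 13.3 in T2 and 17.6 in T3, against 33.2 in C1, 17.2 in C2 and 14.1 in C3, so that it was lower in the second pair and higher in the others, with a difference of 0.07 (standard error 0.18).

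Most members had a higher difference in the second table than in the first, but none passed the test of a difference between the tables. The first table has 1 library per group, so this test took the spread between libraries from the second table alone. Its outcome does not show that the tables agree. In limma, the interaction of VK2 and table was above 0 for 57 of the 66 members. The share of all genes above 0 was not counted, so whether this is particular to the members is not known. The interaction was called for 0 of the members at an adjusted p below 0.05 with Benjamini-Hochberg adjustment (0% of all genes). At an unadjusted p below 0.05 in limma there were 0 members (1.81% of all genes). The smallest unadjusted p from limma was 0.0859, for *mrpl-55*, then 0.124 for *mrpl-41* and 0.133 for *mrps-12*. *mrpl-55*, one of the 3 members with the lowest FPKM, had 25.3 in T1, 10.96 in T2 and 9.96 in T3, against 41.7 in C1, 10.7 in C2 and 8.96 in C3. It was at 0.608 of its control in the first pair and slightly above in the others. *mrpl-41* had 64.7 in T1, 35.4 in T2 and 31.3 in T3, against 84.3 in C1, 26.1 in C2 and 29.7 in C3. Both of its VK2 libraries in the second table were above both controls, while T1 was below C1.

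The members with the highest FPKM in the second table were *mrpl-51*, described above, *mrpl-11* and *mrpl-14*. *mrpl-11*, whose bacterial counterpart sits at the base of the stalk that binds translation factors, had an FPKM of 107 in T1, 38.6 in T2 and 42.3 in T3, against 108 in C1, 44.5 in C2 and 37.8 in C3. Its groups overlapped in the second table, and its difference was -0.02 (standard error 0.14). The gene deposited as *mrpl-14* (WBGene00018475) had 64.7 in T1, 36.3 in T2 and 42.0 in T3, against 92.2 in C1, 37.9 in C2 and 39.2 in C3. It was well below its control in T1, slightly below in T2 and slightly above in T3, with a difference of -0.16 (standard error 0.17), and in Ensembl release 115 it bears the name F45E12.5. *mrps-28*, among the 3 lowest with *mrpl-54* and *mrpl-55*, had 24.2 in T1, 10.4 in T2 and 11.1 in T3, against 27.9 in C1, 11.5 in C2 and 10.2 in C3, with a fitted log2 difference of -0.07 (standard error 0.15).

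FPKM is deposited for each transcript, and 53 of the 66 members had 1 transcript in both tables. Another set of transcripts was listed in each table for 6 members, *mrpl-17*, *mrpl-28*, *mrpl-39*, *mrpl-51*, *mrps-25* and *mrps-35*. *mrpl-17* had a summed FPKM of 41.5 in T1, 15.7 in T2 and 16.5 in T3, against 54.1 in C1, 18.03 in C2 and 13.2 in C3. *mrpl-39* had 34.9 in T1, 10.5 in T2 and 13.1 in T3, against 44.95 in C1, 11.95 in C2 and 9.56 in C3. *mrps-35* had 66.2 in T1, 28.6 in T2 and 28.9 in T3, against 80.6 in C1, 27.2 in C2 and 24.6 in C3. In these 3 genes T1 was below C1 and T3 above C3, and the fitted log2 differences were -0.08, -0.04 and 0.0049 (standard errors 0.18, 0.19 and 0.16).

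In some members the FPKM moved between transcripts from library to library. Of the genes described here, *mrpl-47* and *mrps-30* were chosen after their values were seen. *mrpl-54* was assigned mostly to the transcript F25H5.6.1 in T1 (95.9%), T2 (81.4%), T3 (87.3%) and C3 (90.7%), but almost wholly to F25H5.6.2 in C1 (99.9%) and C2 (99.2%). F25H5.6.1 spans 734 bases (9159024 to 9159757) in the deposited tables and F25H5.6.2 spans 508 bases (9159015 to 9159522), and FPKM divides by length. When each transcript was weighted by the bases it spans, the log2 difference of *mrpl-54* was -0.51 for T1 minus C1, -0.32 for T2 minus C2 and 0.08 for T3 minus C3, with a mean of -0.25 in place of -0.54. The files give the first and last base of a transcript but not its exons, so the weight is approximate where a transcript is spliced. In *mrps-23*, ZK1098.7.1 held 49.5% of the gene in T3 and between 5.43% and 12.7% in the other libraries.

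*mrpl-47* had a like split in a single library. B0261.4a was at 24.3 in T1, 0.562 in T2 and 0.884 in T3, against 1.56 in C1, 0.642 in C2 and 0.773 in C3. B0261.4b was at 25.8 in T1, 25.4 in T2 and 23.3 in T3, against 64.0 in C1, 26.3 in C2 and 25.1 in C3. The sum over both differed less, at 50.05 in T1 and 65.5 in C1. *mrpl-28* had a summed FPKM of 72.3 in T1, 28.4 in T2 and 27.7 in T3, against 78.2 in C1, 28.8 in C2 and 24.8 in C3, with a fitted log2 difference of 0.01 (standard error 0.14), or 1.36 when T25D3.2.2, which the first table does not list, was left out. The second table put its transcript T25D3.2.1 at 27.6 in T3 and at 0.624 in C3, whereas T25D3.2.2 was at 0.0886 in T3 and at 24.1 in C3, so that the assigned transcript changed while the sum differed little. In *mrpl-30*, also chosen after its values were seen, W04B5.4.1 held between 24.6% and 33.1% of the gene in the VK2 libraries and 24.6% in C1, 33.6% in C2 and 69.7% in C3. In *mrps-30*, B0511.8.1 held 99.3% of T2 and 99.0% of C2 but 0.815% of T3 and 2.37% of C3, so this split followed the replicate number and not the treatment.

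**Figure D5:**
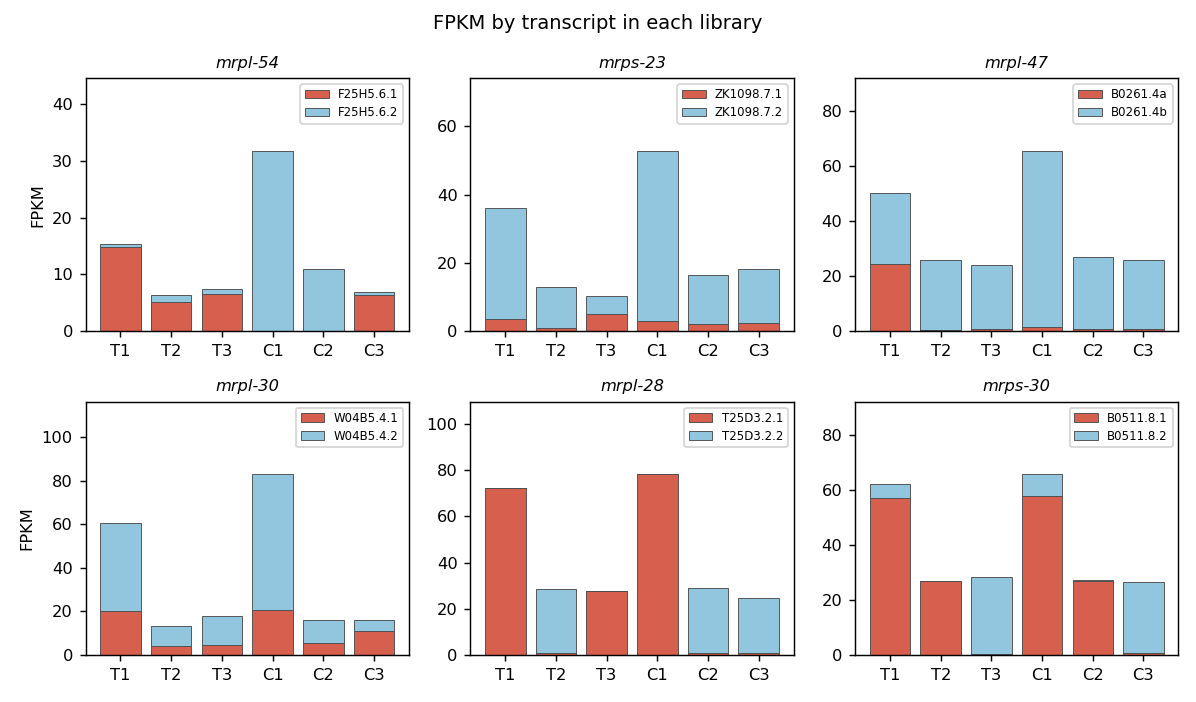
FPKM (vertical axes, each from 0) of 6 mitochondrial ribosomal protein genes in each library, VK2-treated worms first, as bars stacked by transcript. The whole bar is the value of the gene; in *mrpl-54* the lower part (F25H5.6.1) fills most of T1, T2, T3 and C3 and almost none of C1 and C2, and in *mrpl-47* the lower part (B0261.4a) is large in T1 alone.

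The chromosomes held unequal shares of the members, with 14 on chromosome I, 12 on II, 21 on III, 10 on IV, 9 on V and 0 on X. Chromosome III held 31.8% of the members and 15.7% of the tested genes with a position, whereas X held 13.9% of the tested genes. A protein-coding neighbor on the same strand lay within 500 bases of 41 members (62.1%), against 36.8% of the tested genes. Such closeness is typical of genes in operons, whose annotation was not used here. *mrps-2* and *mrpl-4* were the only members within 500 bases of each other on one strand, 105 bases apart on chromosome V. *mrps-2* had an FPKM of 46.1 in T1, 14.7 in T2 and 16.8 in T3, against 53.3 in C1, 17.4 in C2 and 16.1 in C3. *mrpl-4* had 46.8 in T1, 23.8 in T2 and 23.0 in T3, against 55.0 in C1, 23.6 in C2 and 23.3 in C3. Both were lower in T1 than in C1, and their fitted differences were -0.13 and -0.08. A protein-coding gene on the other strand overlapped 15 of the members, among them *mrps-23*, *mrpl-14*, *mrpl-19*, *mrpl-35*, *mrpl-53* and *mrps-11*. As for *mrps-23*, reads of such an overlap may belong to either gene. A protein-coding gene on the same strand overlapped *mrpl-1*, *mrps-15*, *mrps-16* and *mrps-18A*.

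Other genes of mitochondrial translation had medians nearer to 0 in the first pair, although their difference from the ribosomal protein genes, measured in the same libraries, was not tested. The 5 translation factors had a median log2 difference of 0.03 for T1 minus C1, -0.17 for T2 minus C2 and 0.15 for T3 minus C3. *tufm-1*, the mitochondrial elongation factor Tu, had an FPKM of 192 in T1, 71.8 in T2 and 61.0 in T3, against 185 in C1, 88.2 in C2 and 65.9 in C3. The 10 mitochondrial aminoacyl-tRNA synthetases, which charge the tRNAs, had -0.06, -0.15 and 0.14, and *iars-2* had the smallest p among them (0.157, unadjusted, limma). None of the 15 genes had an unadjusted p below 0.05 in limma, where 3.57% of all genes did.

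The 28 nuclear genes of the respiratory chain and the ATP synthase had medians of 0.03, -0.20 and 0.04 in the 3 pairs, and 0 had an unadjusted p below 0.05 in limma. *cyc-2.1*, a cytochrome c, had the smallest p of them at 0.209, with a fitted log2 difference of -0.19 (standard error 0.14). The 81 genes of the cytosolic ribosome had -0.26, -0.05 and -0.24. In the first pair their median was near that of the mitochondrial ribosomal protein genes, and in the third it lay on the other side of 0. Their fitted median was -0.16, with 76 of them below 0 (44.9% of all genes). *rpl-41.2* had the smallest p of them (0.0469, unadjusted, limma) at -0.43 (standard error 0.18). The part of the cytosolic ribosome genes in the values of the mitochondrial genes, through the scaling to each library's total, was not tested.

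Of 8 genes of the mitochondrial unfolded protein response, 7 had a fitted difference below 0 (44.9% of all genes), with a median of -0.15. At an adjusted p below 0.05 in limma with Benjamini-Hochberg adjustment, 0 passed. In the first pair 4 were higher and 4 lower with VK2, with a median of 0.02. In the second pair 7 were lower (62.1% of all genes), and in the third 7 (40.7%), with medians of -0.17 and -0.12. *hsp-6*, the mitochondrial Hsp70 used as a reporter of the response, had an FPKM of 353 in T1, 163 in T2 and 180.5 in T3, against 317 in C1, 184 in C2 and 188 in C3. *hsp-60*, the mitochondrial chaperonin, had 390.2 in T1, 113 in T2 and 140.3 in T3, against 392 in C1, 153 in C2 and 147 in C3. *hsp-6* was above its control in the first pair only and *hsp-60* in none, and the fitted log2 differences were -0.03 and -0.17 (standard errors 0.13 and 0.15). *ubl-5*, a ubiquitin-like cofactor of the response, had the smallest p (0.0168, unadjusted, limma) and was lower in every pair, with 60.5 in T1, 18.1 in T2 and 18.5 in T3, against 86.4 in C1, 23.4 in C2 and 25.1 in C3.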

How the data were processed

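Reads were mapped by the authors to WBcel235 with Hisat2, and Ballgown gave the transcript FPKM, which were deposited in 2 tables. The submitters' processing notes name cutadapt, HISAT2 2.1.0, StringTie and STAR 2.5.2b, with no role or order. In the first table, 49 rows that lacked tabs were read from the right. FPKM was summed over the transcripts of a gene ID. Members were matched by the deposited symbol. limma 3.58.1 in R 4.3.3 was fitted to log2(FPKM + 1), with the trend on, robust off, and terms for VK2 and the table. Of the genes in both tables, 14191 had a mean FPKM of 1 or more and were fitted. The interaction of VK2 and table was fitted likewise. Python 3.11.15, numpy 2.4.6, pandas 2.3.3, scipy 1.17.1 and matplotlib 3.10.9 were also used, with positions and lengths from Ensembl release 115.

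The members, lists, tests and alternatives were chosen with earlier results of these data known. Members named are *mrps-5*, the 8 with the smallest p, the 4 highest and 4 lowest fitted differences, the 3 highest and 3 lowest FPKM of the second table, the 3 smallest interaction p-values, and those whose transcripts differ between the tables. Others named were chosen after their values were seen. From each other list of mitochondrial or cytosolic translation, the gene with the smallest p is named. Tissue lists had fitted medians of 0.15 (germline, 7 genes), 0.26 (oocyte and eggshell, 8), 0.60 (sperm, 43), 0.05 (muscle, 4), 0.12 (intestine, 5), -0.22 (hypodermis, 3) and -0.08 (neurons, 5).

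The alternatives changed the pseudocount (0.1 or 5), the filter (none, or a mean of 5), the scaling (upper quartile or quantile), the terms (no table term, or the replicate block in its place), limma's settings (trend off or robust on), the transcripts (those in both tables) and the libraries (each left out, the second table by itself, or crossed pairs of the second table). The symbols of Ensembl release 115 and the weighting of *mrpl-54* by the bases its transcripts span were added after seeing the data. With group means removed, Pearson's r across genes was 0.881 between T1 and C1, 0.556 between T2 and C2 and 0.543 between T3 and C3. It was 0.608 between T2 and C3 and 0.613 between T3 and C2, so in the second table it followed the table more than the number. Within that table, r between T2 minus T3 and C2 minus C3 was -0.111. The test was checked on simulated data.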

Additional observations from a re-analysis of the deposited data

How the results depend on the processing

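Across the alternatives, limma with Benjamini-Hochberg adjustment called 0 members in every fit, and the median member difference stayed between -0.13 and 0.0050 against -0.07 as reported. With the replicate block, the median was -0.07, 16 members were above 0 and 1 had an unadjusted p below 0.05, as without it, so the block changed no call. The number of members at an unadjusted p below 0.05 in limma was 2 with upper quartile scaling, and 0 with no table term and in the second table alone, against 1. The number of members above 0 was 33 in the second table alone (54.3% of all genes), against 16 (55.1%). With each library left out in turn, these counts ranged from 0 to 5 and from 7 to 33. Leaving out T1 or C1 gave 33 members above 0 (54.3% of all genes), and leaving out C2 gave 27 (60.9%). Leaving out C3 gave 8 (42.0%) and leaving out T3 gave 7 (54.8%). The number lower in all 3 pairs was 16 with upper quartile scaling and 15 with the crossed pairing of the second table, against 10. The share of all genes was 9.32% as deposited. It was not counted for these alternatives, so whether the rise is particular to the members is not known.

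Among named members, *mrps-23* kept its direction in every fit. The second table alone turned *mrpl-14* to 0.018, *mrpl-17* to 0.060, *mrpl-39* to 0.12, *mrpl-55* to 0.088 and *mrps-10* to -0.021. Quantile normalization turned *mrpl-11* to 0.011. For *mrps-35* the value was -0.0026 with a pseudocount of 5 and -0.028 with transcripts in both tables only. With transcripts in both tables only, *mrpl-28* was at 1.36 in place of 0.0077, since T25D3.2.2, listed in the second table alone, was left out. With each library left out, the fitted difference ran from -0.086 to 0.043 for *mrpl-11*, -0.26 to 0.018 for *mrpl-14*, -0.25 to 0.060 for *mrpl-17*, -0.070 to 0.067 for *mrpl-28*, -0.17 to 0.12 for *mrpl-39*, -0.071 to 0.25 for *mrpl-41*, -0.31 to 0.088 for *mrpl-55*, -0.021 to 0.20 for *mrps-10* and -0.077 to 0.15 for *mrps-35*. The cause of these changes was not tested. FPKM gives no depth, and the count of 3 libraries per group limits the precision.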

Other observations

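The genes of the proteins that the mitochondrial ribosome makes included some listed near 0 in 1 or more libraries. Of the 11 mitochondrially encoded genes tested, 8 had a fitted difference below 0 (44.9% of all genes), with a median of -0.21. At an unadjusted p below 0.05 in limma, 2 were lower (0.705% of all genes), *ctb-1* and *atp-6*, with none called. The fit of *ctb-1* rests on values near 0 in T1 and T3. *ctb-1*, the cytochrome b of complex III, was at 0.00578 in T1, 502 in T2 and 0.00277 in T3, against 1110 in C1, 580.1 in C2 and 713 in C3. *ctc-2*, a subunit of cytochrome c oxidase, was at 973 in T1, 298 in T2 and 378 in T3, against 1183 in C1, 0.0043 in C2 and 566 in C3. *nduo-6* was at 0.00501 in T1, 0 in T2 and 0 in T3, against 70.9 in C1, 0 in C2 and 0.00166 in C3. *nduo-3* was at 22.1 in T1, 1.12 in T2 and 4.96 in T3, against 320 in C1, 1.72 in C2 and 1.31 in C3. An FPKM near 0 of a gene that every cell uses, in libraries of both groups, can be a failed estimate. Whether it was one here was not tested. *atp-6*, a subunit of the ATP synthase, had 938 in T1, 74.0 in T2 and 90.5 in T3, against 1303 in C1, 99.9 in C2 and 215 in C3, and was lower in each pair. *ctc-1* and *ctc-3*, the other subunits of cytochrome c oxidase encoded there, had fitted log2 differences of -0.25 and -0.20.

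Gene names have moved since the tables were made. By the symbols of Ensembl release 115, 69 of the tested genes would be mitochondrial ribosomal protein genes, 17 of them above 0, with the same median of -0.07. The genes deposited as F02A9.4, K11B4.1, CD4.3 and T14B4.2 now carry mrpl- or mrps- symbols, and the one deposited as *mrpl-14* does not.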
